A study of Homo sapiens with 6 samples.

Results

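Epithelial-mesenchymal transition (EMT) regulators were examined in HCT116SCs. These cells carry CD44 and CD326, were sorted from HCT116, an established human colorectal cancer line, and were grown as tumor spheres without serum. The set was picked by gene name and holds 10 genes (VIM, ZEB1, ZEB2, SNAI1, SNAI2, TWIST1, GRHL2, ESRP1, ESRP2 and OVOL1) of the 58735 genes in the deposited expression table, and all 10 were found there. RNA was sequenced from cells transfected with NC siRNA, a negative control (n = 3 libraries), or with siPSCA, an siRNA against prostate stem cell antigen (n = 3 libraries), and harvested after 48 h. Both groups carry the unmodified genotype of the line, and both were exposed to EGF, bFGF and the B27 supplement and to the liposomal reagent. All libraries stem from a single cell line, and the labels do not say whether they came from separate cultures, so the p-values measure only the spread between these libraries, which may be technical. The comparison asks whether the regulators that hold colorectal cancer stem cells in an epithelial or a mesenchymal state differ after siPSCA transfection.

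In EMT, epithelial cells loosen their junctions, lose apical-basal polarity and take on a migratory shape. The zinc-finger factors of the SNAI and ZEB families and the basic helix-loop-helix factor TWIST1 drive it, largely by binding E-boxes in the promoters of epithelial genes such as CDH1, and vimentin (VIM), an intermediate filament protein, is a classical product of the mesenchymal state. On the epithelial side, GRHL2 and OVOL1 are transcription factors that keep the epithelial programme active, ESRP1 and ESRP2 are RNA-binding proteins that impose epithelial exon choice, and the miR-200 family restrains ZEB1 and ZEB2, which in turn repress the miR-200 genes. In colorectal carcinoma the factors that drive EMT are known chiefly from the invasive front.

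The libraries held 16099716 to 17302219 reads on genes, which makes a single read on a gene of 1 kb worth an FPKM of 0.0549 to 0.0595. FPKM is the number of reads on a gene divided by its length and by the library total. The length is the one deposited for each gene, and whether it matches the transcripts expressed here was not checked. Levels of different genes can therefore be compared only roughly. PSCA, the targeted gene, had 4, 12 and 15 reads in NC 1, NC 2 and NC 3 and 9, 9 and 7 in siPSCA 1, siPSCA 2 and siPSCA 3. The ranges overlapped (exact permutation p = 0.5, 2-sided), so the transcript reads do not check the labels, and each direction below is drawn between libraries labelled NC and siPSCA. Of the markers, EPCAM, which encodes CD326, and CD44 were present in every library, and the summed FPKM of the 8 sort and colon epithelial markers was 478 to 538 in NC and 481 to 497 in siPSCA, although CDX1 had no read and VIL1 had at most 5 in a library. The 4 endothelial markers summed to at most 0.323 and the 5 leukocyte markers to at most 0.225. The 7 fibroblast markers summed to 3.52 to 5.75 in NC and 6.20 to 6.74 in siPSCA, nearly all of it COL1A1, with LUM at 0 reads and DCN at 2 or fewer in each library. Across 13792 genes, the log2 fold change followed GC content (Spearman correlation 0.664, a description, since genes are not independent replicates). So did the difference of NC 3 from NC 1 and NC 2 (Spearman correlation -0.561). The same correlation was not computed for NC 1 or NC 2, so it does not single out NC 3. GC content is therefore given beside the members, together with the log2 fold change after the trend with GC and gene length was removed. It was taken from the longest annotated transcript of each gene, which need not be the one expressed here. Whether GC content has a part in the differences was not tested. In bulk RNA, fewer cells of a type and less RNA per cell cannot be told apart.

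The sequences through which the miR-200 family meets the ZEB transcripts are shown first, because reads on the genes of both were compared. The mature miRNAs are given 5′ to 3′ from RefSeq on GRCh38.p14, with the seed (bases 2 to 8) in capitals. They fall into 2 seed groups, AAUACUG and AACACUG, and 3 of the 5 genes lie on chromosome 1 and the other 2 on chromosome 12.
hsa-miR-200b-3p: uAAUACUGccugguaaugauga
hsa-miR-429: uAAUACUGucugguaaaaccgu
hsa-miR-200c-3p: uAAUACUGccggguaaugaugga
hsa-miR-200a-3p: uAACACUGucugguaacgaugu
hsa-miR-141-3p: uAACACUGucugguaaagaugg

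The complement of the first seed reads CAGTATT in a transcript, and that of the second CAGTGTT. Both were sought on the transcript strand of the longest annotated 3′ untranslated region of each gene. ZEB1 held 6 and 3 of them in 2549 bases, and ZEB2 held 5 and 4 in 5370 bases. SNAI2 and GRHL2 held 1 site each, ESRP1 held 1 of either kind, and none was found in VIM, SNAI1, TWIST1, ESRP2 or OVOL1. Among 11038 genes that averaged an FPKM of 1 or more, 19.1% held the first site and 21.4% the second. A match is a run of letters and not a shown binding site. The following windows of 21 bases show examples of either site, in capitals, in the ZEB transcripts.
ZEB1, chr10:31527714-31527734, plus strand: gctaaatccgcttCAGTATTt
ZEB1, chr10:31528564-31528584, plus strand: tcttcaaacctggCAGTATTa
ZEB1, chr10:31528033-31528053, plus strand: aaatcatcagaatCAGTGTTt
ZEB2, chr2:144389052-144389072, minus strand: cactaccatacatCAGTATTt
ZEB2, chr2:144388669-144388689, minus strand: tttgcaccagcttCAGTGTTa

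After siPSCA transfection, VIM and ESRP1 fell and ESRP2 and SNAI1 rose, whereas GRHL2, OVOL1, TWIST1, ZEB1, SNAI2 and ZEB2 did not pass the test. The linear model of limma was fitted to log2(FPKM + 1) over the 13796 genes that averaged an FPKM of 1 or more, and a gene was called at an adjusted p under 0.05. Of the 10 members, 7 reached that minimum and 4 of these were called, 2 higher and 2 lower, where 50.7% of all tested genes were called (26.6% higher and 24.2% lower). The median log2 fold change of the 7 was 0.23, beside 0.01 for all tested genes. ZEB1, ZEB2 and SNAI2 lay under the minimum and were fitted with the 34391 genes that had any read, of which 16.3% were called (8.08% higher and 8.21% lower), and none of the 3 was called. Their unadjusted p-values from limma were 0.104 for ZEB1, 0.899 for ZEB2 and 0.918 for SNAI2. With the GC and length trend removed, 3 of the 7 were called, 1 higher and 2 lower, where 40.2% of genes were called (21.7% higher and 18.4% lower), and SNAI1 was the member lost. The share of members called was thus close to that of all genes.

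**Figure D1:**
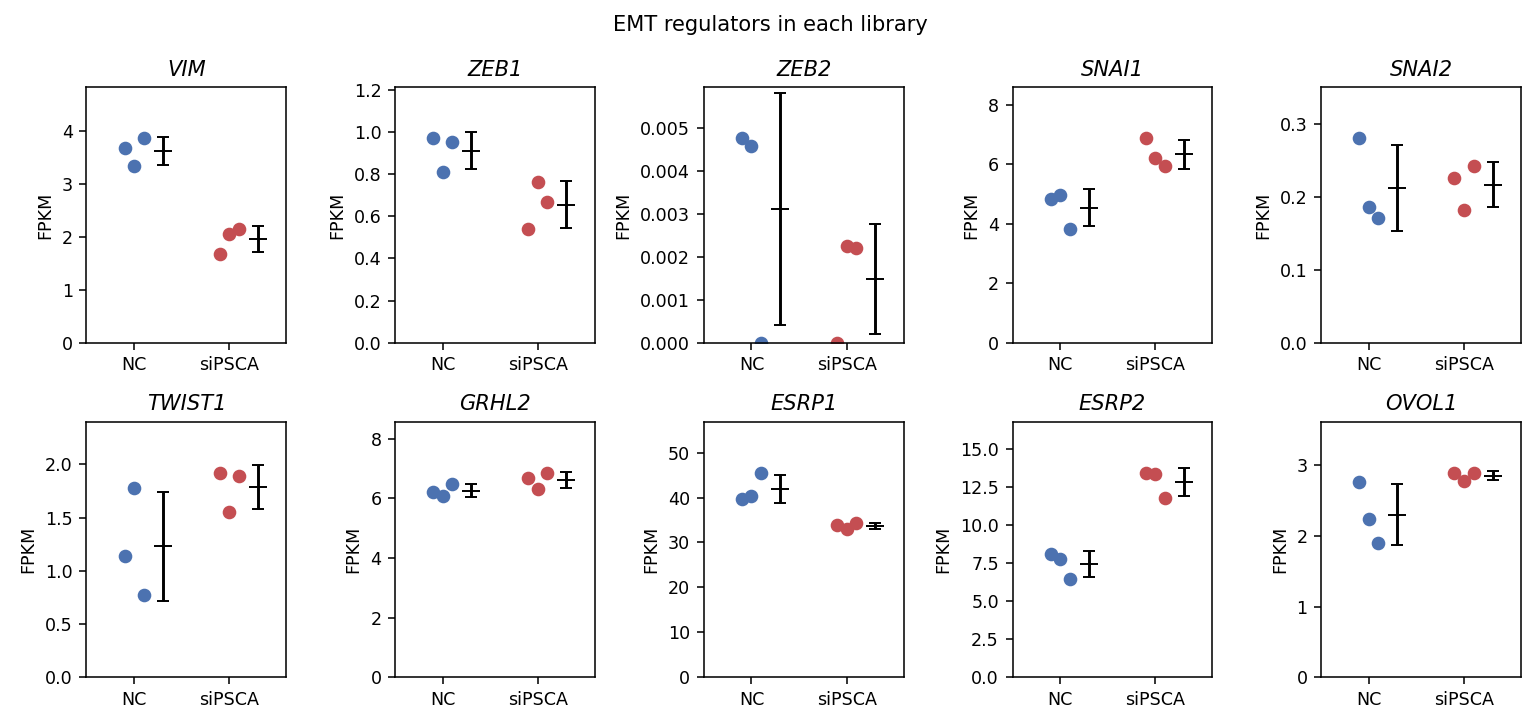
FPKM of each of the 10 EMT regulators in each library, with NC in blue and siPSCA in red. Points are libraries in the order 1, 2, 3, black marks are the mean and SD (n = 3), and each panel has its own axis starting at 0. VIM, ZEB1 and ESRP1 lie lower in all siPSCA libraries, SNAI1, ESRP2 and OVOL1 lie higher, and the groups overlap for ZEB2, SNAI2, TWIST1 and GRHL2.

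The members differed widely in level. In NC, ESRP1 stood at a mean FPKM of 41.8 and exceeded the NC mean of 96.4% of protein-coding genes, ESRP2 exceeded 72.7% and GRHL2 69.3%. SNAI1 exceeded 63.2% of protein-coding genes, VIM 59.0%, OVOL1 52.8%, TWIST1 46.4%, ZEB1 44.0%, SNAI2 35.1% and ZEB2 18.4%. From highest to lowest, the NC order was ESRP1, ESRP2, GRHL2, SNAI1, VIM, OVOL1, TWIST1, ZEB1, SNAI2 and ZEB2, and the ranges of the NC libraries overlapped between ESRP2 and GRHL2, between SNAI1 and VIM, and between TWIST1 and ZEB1. In siPSCA the order was ESRP1, ESRP2, GRHL2, SNAI1, OVOL1, VIM, TWIST1, ZEB1, SNAI2 and ZEB2, with overlap between GRHL2 and SNAI1 and between VIM and TWIST1. VIM and OVOL1 thus exchanged places in FPKM, and in neither group did their ranges overlap. VIM stood 1.58 times above OVOL1 in NC, and OVOL1 stood 1.45 times above VIM in siPSCA. This order rests on the deposited gene lengths.

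VIM, the filament protein of mesenchymal cells (ENSG00000026025, chromosome 10, 17228259 to 17237593, plus strand), fell. Its FPKM was 3.67, 3.34 and 3.86 in NC 1, NC 2 and NC 3 and 1.68, 2.06 and 2.15 in siPSCA 1, siPSCA 2 and siPSCA 3, from 318, 300 and 343 reads against 147, 189 and 202. Every siPSCA library lay below every NC library, and the lowest NC value was above the highest siPSCA value by more than either group's SD. The mean went from 3.62 ± 0.26 to 1.97 ± 0.25 (SD, n = 3 each), giving a log2 fold change of -0.64 with a standard error of 0.09 (adjusted p = 0.0028, limma). The GC content of its longest annotated transcript is 46.9%, near the median of 48.1% over tested genes. The log2 fold change was -0.62 with the GC trend removed. VIM was called in all 6 fits that left out a library, with values from -0.69 to -0.57. The antisense gene VIM-AS1 overlaps its start on the opposite strand, and the sources used here do not say whether reads were counted by strand. VIM-AS1 had an FPKM of 2.15, 2.33 and 1.54 in NC and 2.23, 3.30 and 2.12 in siPSCA, so the groups overlapped. It was not called on the main scale (0.23, adjusted p = 0.274, limma). With the GC trend removed it was called higher (0.56, adjusted p = 0.0449, limma).

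SNAI1, which encodes the repressor Snail, rose on the main scale, but not with the GC trend removed (0.08 on the log2 scale, adjusted p = 0.261, limma). It lies on chromosome 20 from 49982999 to 49988886 on the plus strand, and its longest annotated transcript has a GC content of 58.2%. Its FPKM was 4.84, 4.97 and 3.82 in NC 1, NC 2 and NC 3 and 6.87, 6.21 and 5.93 in siPSCA 1, siPSCA 2 and siPSCA 3. The groups did not overlap, and NC 3 was the lowest library. The mean went from 4.54 ± 0.63 to 6.33 ± 0.49 (SD, n = 3 each), giving a log2 fold change of 0.41 with a standard error of 0.10 (adjusted p = 0.0176, limma). The call was lost without siPSCA 1 (0.36, adjusted p = 0.0651) and without siPSCA 2 (0.42, adjusted p = 0.0532).

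SNAI2, which encodes the related repressor Slug, was near the limit of detection, with 16, 11 and 10 reads in NC and 13, 11 and 15 in siPSCA. The groups overlapped. Summed reads in siPSCA were 1.02 times those in NC (exact 95% binomial interval 0.637 to 1.65), which covers counting error only, so a change within that interval was not detectable at this depth. The log2 ratio of SNAI1 to SNAI2, which compares the pair within each library on the FPKM + 1 scale, was 2.19 ± 0.15 in NC and 2.59 ± 0.10 in siPSCA (SD, n = 3 each). The ratio was higher in all siPSCA libraries (exact permutation p = 0.1, 2-sided, which is the smallest that 3 libraries against 3 allow). With a pseudocount of 0.1 the exact permutation p was 0.2. The difference of 0.40 is close to that of SNAI1 itself, whose call is lost with the GC trend removed, and the ratio was not computed on that scale.

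ZEB1, a zinc-finger homeodomain repressor of epithelial genes, was expressed at a low level and was lower in siPSCA in these libraries without passing the test. It lies on chromosome 10 from 31318495 to 31529814 on the plus strand. Its FPKM was 0.970, 0.810 and 0.953 in NC, from 141, 122 and 142 reads, and 0.540, 0.761 and 0.666 in siPSCA, from 79, 117 and 105 reads. The groups did not overlap, although siPSCA 2 came close to NC 2. The log2 fold change was -0.21 with a standard error of 0.11 (95% confidence interval -0.47 to 0.06, adjusted p = 0.276, limma). ZEB1 has a GC content of 38.5%, and with the GC and length trend removed over genes that averaged an FPKM of 0.1 or more the sign turned, to 0.05 (adjusted p = 0.738, limma). The antisense gene ZEB1-AS1, which overlaps its start, had an FPKM of 0.839, 0.690 and 0.667 in NC and 0.478, 0.397 and 0.344 in siPSCA, again without overlap and again without a call (adjusted p = 0.0935, limma). SPTLC1P1, a pseudogene inside ZEB1 on the same strand, had 7, 15 and 15 reads in NC and 5, 7 and 2 in siPSCA, so that the groups met at 7 reads. Reads of a pseudogene can be shared with its parent gene, so these counts are uncertain. It was called lower (-0.89, adjusted p = 0.0403, limma), but not with the GC trend removed (-0.68, adjusted p = 0.105, limma), and in only 2 of the 6 fits that left out a library.

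ZEB2, the relative of ZEB1, was under the floor of 3 reads in every library, with 2, 2 and 0 reads in NC and 0, 1 and 1 in siPSCA, so no fold change is given. The transcript that carries 9 of the sites shown above was therefore nearly absent from both groups. The log2 ratio of ZEB1 to ZEB2 differed by -0.21 between the groups, which is the difference of ZEB1 itself.

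TWIST1, the basic helix-loop-helix factor, did not pass the test. It lies on chromosome 7 from 19020991 to 19117672 on the minus strand. Its FPKM was 1.14, 1.78 and 0.771 in NC 1, NC 2 and NC 3 and 1.92, 1.55 and 1.89 in siPSCA 1, siPSCA 2 and siPSCA 3, with NC 2 inside the siPSCA range. NC 3 was the lowest library, with 27 reads where the others had 39 to 70. The log2 fold change was 0.34 with a standard error of 0.18 (95% confidence interval -0.08 to 0.77, adjusted p = 0.148, limma). TWIST1 has a GC content of 57.2%, and the value was 0.05 with the GC trend removed. Without NC 2 it was called (0.51, adjusted p = 0.0334, limma), and without NC 3 it was 0.19 (adjusted p = 0.312, limma).

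ESRP1 and ESRP2, the epithelial splicing regulators, moved in opposite directions. ESRP1 (chromosome 8, 94641074 to 94707466, plus strand) had an FPKM of 39.7, 40.4 and 45.5 in NC 1, NC 2 and NC 3 and 33.9, 33.0 and 34.2 in siPSCA 1, siPSCA 2 and siPSCA 3. All siPSCA libraries were lower, and NC 3 was the highest of all. The mean fell from 41.8 ± 3.2 to 33.7 ± 0.6 (SD, n = 3 each), giving a log2 fold change of -0.30 with a standard error of 0.06 (adjusted p = 0.0101, limma).
ESRP2 (chromosome 16, 68229111 to 68238102, minus strand) had an FPKM of 8.11, 7.77 and 6.44 in NC 1, NC 2 and NC 3 and 13.4, 13.3 and 11.8 in siPSCA 1, siPSCA 2 and siPSCA 3. All siPSCA libraries were higher, and NC 3 was the lowest. The mean rose from 7.44 ± 0.88 to 12.8 ± 0.9 (SD, n = 3 each), giving a log2 fold change of 0.72 with a standard error of 0.10 (adjusted p = 0.0024, limma).
The GC content of ESRP1 is 42.8% and that of ESRP2 59.6%, on either side of the median of tested genes. With the GC trend removed both calls held at a smaller size, at -0.13 for ESRP1 (adjusted p = 0.0414, limma) and 0.30 for ESRP2 (adjusted p = 0.0044, limma). Both were called in all 6 fits that left out a library. NFATC3 overlaps the end of ESRP2 on the opposite strand and had an FPKM of 2.51, 2.73 and 3.16 in NC and 3.05, 2.66 and 2.61 in siPSCA, with overlapping groups.

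The balance of the pair shifted while their sum moved little. This measure was chosen after the values had been seen. The summed FPKM of ESRP1 and ESRP2 was 47.8, 48.2 and 51.9 in NC 1, NC 2 and NC 3 and 47.3, 46.3 and 46.0 in siPSCA 1, siPSCA 2 and siPSCA 3. The groups lay close together, and only a narrow gap separated NC 1 from siPSCA 1. ESRP2 made up 17.0%, 16.1% and 12.4% of the sum in NC 1, NC 2 and NC 3 and 28.4%, 28.8% and 25.6% in siPSCA 1, siPSCA 2 and siPSCA 3, so its share was higher in each siPSCA library. The log2 ratio of ESRP1 to ESRP2, one of 4 ratios fixed for comparison, went from 2.35 ± 0.26 to 1.33 ± 0.12 (SD, n = 3 each), a difference of -1.02, without overlap (exact permutation p = 0.1, 2-sided, adjusted p = 0.1 over the 4 ratios). It was -0.43 with the GC trend removed.

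**Figure D2:**
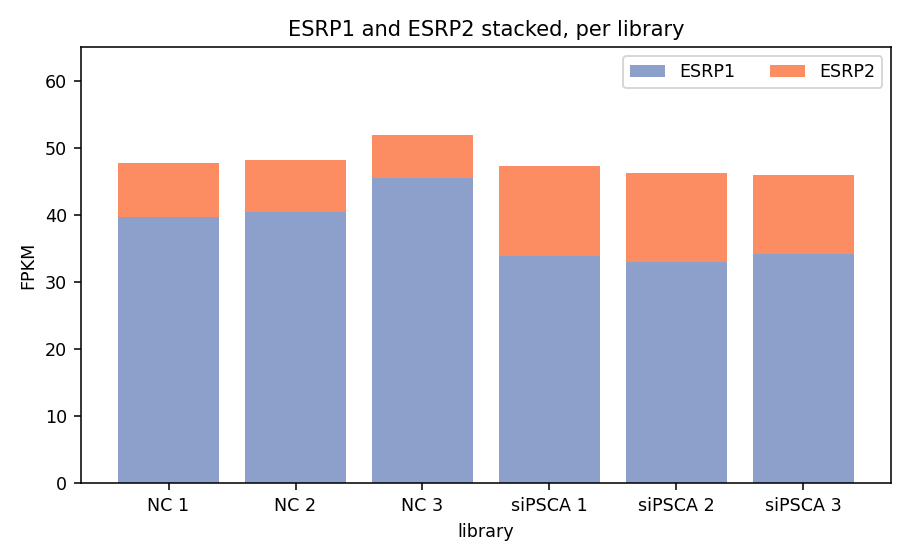
FPKM of ESRP1 (blue) and ESRP2 (orange) stacked in each of the 6 libraries, with the axis starting at 0. The total height stays between 46.0 and 51.9, while the ESRP2 part takes 12.4% to 17.0% in NC and 25.6% to 28.8% in siPSCA.

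GRHL2, the grainyhead-like factor that activates epithelial junction genes (chromosome 8, 101492432 to 101669726, plus strand), was the steadiest of the members with an appreciable level. Its FPKM was 6.22, 6.07 and 6.48 in NC and 6.66, 6.30 and 6.85 in siPSCA, and the groups overlapped. The log2 fold change was 0.07, with a 95% confidence interval of -0.07 to 0.20 (adjusted p = 0.346, limma). The log2 ratio of VIM to GRHL2, another of the 4 ratios, went from -0.65 ± 0.05 in NC to -1.36 ± 0.13 in siPSCA (SD, n = 3 each), a difference of -0.71 without overlap (exact permutation p = 0.1, 2-sided), and of -0.63 with the GC trend removed.

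OVOL1, a zinc-finger repressor of mesenchymal genes (chromosome 11, 65787022 to 65797219, plus strand), did not pass the test. Its FPKM was 2.75, 2.24 and 1.90 in NC 1, NC 2 and NC 3 and 2.89, 2.78 and 2.88 in siPSCA 1, siPSCA 2 and siPSCA 3. The siPSCA libraries lay just above NC 1 and NC 3 was the lowest. The log2 fold change was 0.23 with a standard error of 0.11 (95% confidence interval -0.02 to 0.49, adjusted p = 0.111, limma). With the GC trend removed it turned to -0.13 (GC content 58.3%), and without NC 1 it was called (0.33, adjusted p = 0.0295, limma). Without NC 3 it was 0.14 (adjusted p = 0.207, limma). OVOL1-AS1, antisense within it, had 4 to 13 reads in a library.

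**Figure D3:**
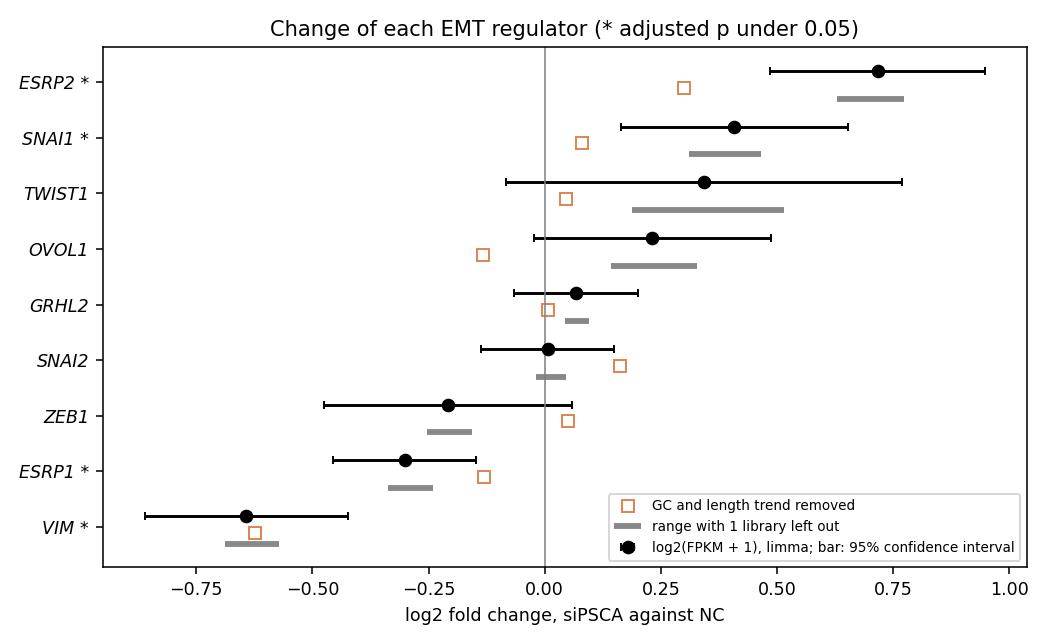
Log2 fold change of the EMT regulators, siPSCA against NC, without ZEB2, which lay under the floor of 3 reads. Black points are limma estimates on log2(FPKM + 1) with 95% confidence intervals, orange squares the estimates with the GC and length trend removed, grey bars the range when 1 library is left out, and asterisks mark the 4 called genes. VIM stays at -0.62 with the trend removed, ESRP2 moves from 0.72 to 0.30 and SNAI1 from 0.41 to 0.08, and OVOL1 and ZEB1 change sign.

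Over the 10 members, 6 had groups that did not overlap, 3 lower in siPSCA (VIM, ZEB1 and ESRP1) and 3 higher (SNAI1, ESRP2 and OVOL1). Among genes that averaged an FPKM of 1 or more, the groups did not overlap for 64.5% (33.7% higher and 30.8% lower). Among all genes with a read, they did not overlap for 34.7% (16.5% higher and 18.2% lower). The 4 members with overlapping groups were GRHL2, TWIST1, SNAI2 and ZEB2. In all, 23 annotated genes overlap 8 of the members. The 18 of these not described above had at most 25 reads over the 6 libraries, and 10 of them had none.

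The counts of called genes in the lists stand beside 50.7% called over all tested genes (26.6% higher and 24.2% lower), or 40.2% (21.7% higher and 18.4% lower) with the GC trend removed. Of 13 other EMT-inducing transcription factors, 6 reached the FPKM minimum and 4 rose, none falling, with a median log2 fold change of 0.24. With the GC trend removed 4 were called higher and 1 lower, but these were not the same genes. FOXC1 lost its call (0.24 to -0.05) and HMGA2 gained one (0.03 to 0.46). SNAI3, not called on the main scale (0.22), was called lower (-0.44). FOSL1, an AP-1 subunit that promotes invasion, had an FPKM of 18.5, 20.7 and 15.7 in NC and 34.3, 32.7 and 33.6 in siPSCA. All siPSCA libraries were higher, with a log2 fold change of 0.85 and a standard error of 0.10 (adjusted p = 0.0017, limma), and 0.44 with the GC trend removed. TWIST2, the closest relative of TWIST1, had no read.

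Of 11 other epithelial transcription and splicing factors, 7 were tested, and 1 rose, 2 fell and 4 did not pass the test (median -0.15). With the GC trend removed 1 was called higher and 3 lower. ELF3, an ETS factor of epithelial differentiation, had an FPKM of 2.52, 2.79 and 2.03 in NC and 1.31, 1.22 and 1.27 in siPSCA, all lower (-0.60, standard error 0.10, adjusted p = 0.0055, limma). RBM47, an RNA-binding protein that, like the ESRP proteins, acts on exon choice in epithelial cells, had 2.58, 2.72 and 2.72 in NC and 3.18, 3.42 and 3.75 in siPSCA, all higher (0.27, standard error 0.07, adjusted p = 0.0212, limma). With the GC trend removed ELF3 was at -0.85 and RBM47 at 0.29. The call of RBM47 was lost without NC 1 (0.26), without siPSCA 2 (0.28) and without siPSCA 3 (0.23). A lower FPKM minimum of 0.1 raised the count of called genes to 5, with 3 higher.

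The 30 epithelial target genes encode junction, polarity and keratin proteins and other proteins of epithelial cells. All 30 were tested and 17 were called, 12 higher and 5 lower, but 7 higher and 10 lower with the GC trend removed. The median log2 fold change went from 0.15 to -0.13 between these scales, so no common direction can be given, and the count was 11 without siPSCA 1. CDH1, which encodes E-cadherin and is the best known target of SNAI1 and ZEB1, had an FPKM of 28.0, 30.1 and 32.1 in NC and 18.8, 19.8 and 19.9 in siPSCA. It was lower in every siPSCA library (-0.60, standard error 0.06, adjusted p = 0.0013, limma), and -0.62 with the GC trend removed. PATJ, a polarity scaffold of tight junctions, fell without overlap from 9.72 ± 0.62 to 6.25 ± 0.39 (SD, n = 3 each). Its log2 fold change was -0.56 (adjusted p = 0.0019, limma), and -0.34 with the GC trend removed. CRB3, the Crumbs protein that binds the same polarity complex, had an FPKM of 7.40, 6.71 and 3.43 in NC and 12.1, 10.4 and 12.0 in siPSCA, where NC 3 was far below the others. Its log2 fold change was 0.92 (adjusted p = 0.0213, limma), 0.63 without NC 3, and it was not called without siPSCA 1 (0.88) or siPSCA 3 (0.89). With the GC trend removed CRB3 was at 0.48 (adjusted p = 0.0471, limma). PKP3, a desmosomal plakophilin, had an FPKM of 21.4, 21.9 and 10.8 in NC and 37.7, 35.9 and 35.9 in siPSCA, again with NC 3 lowest (1.04, adjusted p = 0.0166, limma). With the GC trend removed it was no longer called (0.29, adjusted p = 0.0530), nor without siPSCA 1 (1.01) or siPSCA 2 (1.05).

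ZEB and SNAI proteins bind the E-box CACCTG, which reads CAGGTG on the other strand. In the RefSeq promoter windows, from 250 bases before to 50 bases after the start, this E-box was present in 20.6% of 35116 promoters of all genes. It was present in 68.2% of 22 promoters of the 16 epithelial target genes that had an entry, and in 18.2% of 22 promoters of 16 mesenchymal genes. The windows of CRB3, which rose, and PATJ, which fell, both hold it, and that of VIM does not. The epithelial list was picked as target genes, so its share is no independent result. Whether the motif has a part in any change was not tested. The 250 bases upstream of these starts follow, on the plus strand, with E-boxes in capitals. A match is a description and not a bound site, and no match says only that these letters are not in the window.
CRB3, chr19:6464021-6464270: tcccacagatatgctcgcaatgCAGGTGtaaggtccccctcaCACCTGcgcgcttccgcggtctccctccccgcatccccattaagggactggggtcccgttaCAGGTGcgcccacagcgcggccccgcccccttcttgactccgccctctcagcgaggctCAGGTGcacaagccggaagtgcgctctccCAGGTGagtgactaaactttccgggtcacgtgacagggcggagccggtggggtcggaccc
PATJ, chr1:61742230-61742479: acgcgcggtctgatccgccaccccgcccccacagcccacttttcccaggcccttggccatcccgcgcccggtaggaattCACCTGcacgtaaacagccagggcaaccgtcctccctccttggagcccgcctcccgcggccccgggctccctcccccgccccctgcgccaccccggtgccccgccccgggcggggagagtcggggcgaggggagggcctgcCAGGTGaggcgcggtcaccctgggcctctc
VIM, chr10:17227991-17228240: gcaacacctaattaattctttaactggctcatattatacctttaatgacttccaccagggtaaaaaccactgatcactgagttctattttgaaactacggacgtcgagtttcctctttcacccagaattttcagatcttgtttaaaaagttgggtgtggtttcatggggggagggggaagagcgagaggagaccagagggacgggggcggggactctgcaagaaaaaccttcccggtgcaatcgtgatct

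Of 30 mesenchymal genes, 11 reached the FPKM minimum, 16 had reads but lay under it and 3 had no read. Of the 11, 3 rose and 2 fell, with a median log2 fold change of 0.07, and with the GC trend removed 1 was called higher and 4 lower. FN1, fibronectin, fell from 5.75 ± 0.45 to 3.99 ± 0.17 (SD, n = 3 each; -0.44, adjusted p = 0.0041, limma), and was -0.07 and not called with the GC trend removed. S100A4, a calcium-binding protein tied to motility, rose from 225 ± 5 to 379 ± 16 (0.75, adjusted p = 4.7e-04, limma), without overlap, and stayed at 0.55 with the GC trend removed. COL6A1, a collagen VI chain, rose from 31.0 ± 6.2 to 48.9 ± 2.7 (0.66, adjusted p = 0.0125, limma), and was 0.06 and not called with the GC trend removed.

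All 7 genes with exons known to be set by ESRP proteins were tested. Of these 2 rose and 3 fell, but the count was 2, both lower, with the GC trend removed, and 3 without NC 2 or any siPSCA library. CD44, the sort marker and a well studied ESRP1 target, fell from 82.6 ± 4.4 to 60.7 ± 1.5 (SD, n = 3 each), giving a log2 fold change of -0.44 (adjusted p = 0.0019, limma), and was -0.30 with the GC trend removed. EXOC7, an exocyst subunit, rose from 10.8 ± 0.4 to 14.6 ± 0.2, a log2 fold change of 0.40 (adjusted p = 0.0019, limma), and was 0.11 and not called with the GC trend removed. Values per gene do not show exon choice, which was not analysed here.

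Among 8 TGF-beta ligands, receptors and SMADs, the best known inducers of EMT, 6 were tested and 4 fell, none rising (median -0.30), where 24.2% of all tested genes fell, while with the GC trend removed 1 was called higher and 3 lower. SMAD4, the shared SMAD of the pathway, had an FPKM of 6.85, 7.12 and 7.68 in NC and 5.26, 5.70 and 5.04 in siPSCA, all lower (-0.38, standard error 0.07, adjusted p = 0.0059, limma), and was -0.03 and not called with the GC trend removed.

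Reads on MIR429, of the miR-200 locus on chromosome 1, were more frequent in siPSCA. The libraries were made for long RNA, so these reads are no measure of the mature miRNAs printed above. Of 8 precursor genes, 4 were tested and 2 were called higher, MIR429 and MIR200B. Without NC 1, MIR200B was not called (1.33) and MIR200CHG was called lower (-0.47). MIR429 (1169005 to 1169087) had 5, 2 and 0 reads in NC 1, NC 2 and NC 3 and 19, 20 and 18 in siPSCA 1, siPSCA 2 and siPSCA 3, all higher (log2 fold change 2.65, standard error 0.51, adjusted p = 0.0076, limma). The ratio of summed reads was 7.92 (exact 95% binomial interval 3.60 to 20.6, counting error only). NC 2 and NC 3 were under the floor of 3 reads, so the size of the MIR429 difference is uncertain. With a library left out its log2 fold change ranged from 2.08 to 3.18. MIR200B, the other called gene, had 0, 1 and 0 reads in NC and 7, 3 and 2 in siPSCA. Each NC library was under the floor of 3 reads, and MIR200B reached the FPKM minimum through the siPSCA libraries. Its call is therefore no support for a rise, and with no minimum it was not called. MIR200A, between them, had 9, 0 and 2 in NC and 3, 3 and 2 in siPSCA, and the groups overlapped. AL390719.2, a long non-coding RNA that starts just downstream of MIR429 on the same strand and was chosen after its values had been seen, had 50, 60 and 9 reads in NC and 147, 113 and 133 in siPSCA, where NC 3 was again lowest. Its log2 fold change was 1.49 (adjusted p = 0.0243, limma), with a GC content of 65.8%, and 0.84 with the GC trend removed. It was not called without siPSCA 1 (1.39), siPSCA 2 (1.59) or siPSCA 3 (1.50). On chromosome 12, MIR200CHG, the host gene of miR-200c and miR-141, had 9, 17 and 21 reads in NC and 12, 10 and 15 in siPSCA, and the groups overlapped.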

How the data were processed

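RNA of HCT116SCs was sequenced in 6 libraries (NC, n = 3; siPSCA, n = 3), 48 h after transfection, with groups taken from the sample labels. Although 2 titles (siPSCA 2, siPSCA 3) give HCT a different number, their remaining labels name HCT116, and both libraries were kept. The authors used a NEBNext Ultra kit with paired-end sequencing. The aligner, the counting program, the setting for strand and the test for differential expression are not given in the sources used here, and the siPSCA sequence used for sequencing is not named. The authors deposited FPKM values per gene, on GRCh38 per the labels, with positions that match GENCODE release 29 for all 58735 genes. The product of FPKM and gene length came in whole steps (within 0.02) for 100% of values, so reads were recovered.

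The model of limma 3.58.1 (R 4.3.3; lmFit, eBayes with trend) was fitted to log2(FPKM + 1) with group as the only term, for genes averaging an FPKM of 1 or more. Adjusted p-values follow Benjamini and Hochberg over all genes tested, and those of genes come from limma. Fold changes on this scale understate those of low genes. On simulated data with 200 of 13796 genes changed, 177 were recovered at a log2 change of 1 (13 false calls) and 0 at 0.5 (0 false calls), where limma-voom recovered 182 (11 false calls) and 108 (6 false calls). The simulated data had the same spread setting for all genes and no GC trend, and few genes changed. In the real libraries 50.7% of tested genes were called, so the recovered numbers may not carry over to them. Ratios of 4 pairs of members were tested by an exact permutation test. Python 3.11.15, pandas 2.3.3 and scipy 1.17.1 were used for the rest, and matplotlib 3.10.9 for figures. The members and the gene lists were chosen with earlier results of these data known. Named genes were the members, genes overlapping them, PSCA and, in each list, the largest rise and fall past the threshold without overlap of the groups (2 of each in lists with 10 or more tested genes). Among the genes that this rule picks, 1 is not reported here. RefSeq promoters were matched for VIM, ZEB1 and ZEB2, and those of the other members were not used here.
The alternatives were a pseudocount of 0.1, an FPKM minimum of 0.1 or none, TPM, median-of-ratios scaling, limma-voom on the recovered reads, removal of a spline trend with GC content and gene length, the replicate number as a block, and each library left out. Intervals and floors (3 reads) cover counting error only.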

Additional observations from a re-analysis of the deposited data

How the results depend on the processing

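The number of members called was 3 with the GC and length trend removed and 3 to 5 with a library left out, and 4 under the other alternatives run. Direction turned for OVOL1 with the GC and length trend removed (-0.13) and for ZEB1 with that trend removed over genes averaging an FPKM of 0.1 or more (0.049). The latter was chosen after seeing the data, since the removal gave no usable value for members under the minimum of 1. With 1 library left out PSCA ranged from -0.18 to 0.014 (above 0 without NC 3), and SNAI2 from -0.018 to 0.046 (below 0 without NC 2, NC 3 or siPSCA 3, and -0.0015 with TPM). The deviations of same-numbered libraries from their group means correlated at 0.096, 0.013 and 0.134. Those of differently numbered libraries correlated at -0.131 to 0.042. With so few libraries these values do not settle whether the replicate numbers pair them. With the replicate block, 3 genes with ESRP-regulated exons were called in place of 5, and the block moved no other count of calls by over 1.5 times. Of the same genes 2 were called with the GC trend removed, 3 with no FPKM minimum and 3 to 5 with a library left out. The other epithelial factors gave 5 calls in place of 3 with a minimum of 0.1 or none, and the miR-200 precursor genes 1 in place of 2 with no minimum, and 1 higher and 1 lower in place of 2 higher without NC 1. The epithelial target genes gave 11 to 18 calls with a library left out. The causes of these changes were not tested. The 4 ratios kept their direction under each alternative run, and no block was fitted to them. Depth limits SNAI2 and ZEB2, which had at most 16 reads in a library.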
